A study of Rattus norvegicus with 14 samples.

Results

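Voltage-gated calcium channels open on depolarization and let calcium into neurons, and 10 rat genes that encode their subunits are described here. They were taken by gene symbol from the 22601 genes of the expression tables, and all 10 passed the filter on low values. They comprise 7 genes for pore-forming alpha1 subunits (Cacna1a, Cacna1b, Cacna1c, Cacna1e, Cacna1g, Cacna1h and Cacna1i), 2 genes for alpha2delta subunits (Cacna2d1 and Cacna2d2) and the beta subunit gene Cacnb4. Another 10 subunit genes are given beside them.

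Whole hippocampal tissue (about 100 mg a sample) of 14 wild type Wistar rats weighing 180 to 220 g was sequenced after mRNA capture. Of these rats, 5 belonged to a PTZ model and received Q808 (PTZ+Q808), 5 belonged to the same model and received vehicle (PTZ), and 4 were controls that received vehicle (control). PTZ stands for pentylenetetrazole, which provokes seizures by blocking GABA-A receptors, and for Q808 only the code name is used here. The labels state no dose, time of sampling, age or sex. Values are FPKM, fragment counts scaled to transcript length and to the mapped total of the library, so levels of different genes can be set side by side per length.

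The alpha1 subunit forms the pore and sets the current type. P/Q-type (Cacna1a), N-type (Cacna1b) and R-type (Cacna1e) channels supply calcium for transmitter release, L-type channels (Cacna1c) couple activity to transcription, and low-threshold T-type channels (Cacna1g, Cacna1h, Cacna1i) shape burst firing. Alpha2delta and beta subunits carry high-voltage-activated pores to the membrane, and the alpha2delta-1 and alpha2delta-2 proteins bind the antiseizure drugs gabapentin and pregabalin.

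Some libraries stood apart. Summed FPKM per library lay between 383126 and 419358, and depth estimated from the steps between low values ran from 0.859 to 1.04 relative to control replicate 1. Ttr, a choroid plexus transcript, was under 500 FPKM in PTZ+Q808 replicate 1, PTZ replicate 2 and control replicate 3. The 8 choroid plexus markers, Ttr among them, summed to 340, 119 and 57.9 FPKM in these libraries. In every other library they summed to 1333 to 7284 FPKM, so the libraries low in Ttr held the least of these transcripts. Pituitary, pineal and striatal markers were each high in 1 library, 1 per group. The 5 pituitary markers summed to 685 FPKM in PTZ+Q808 replicate 3, the 7 pineal markers to 252 FPKM in PTZ replicate 1, and the 8 striatal markers to 490 FPKM in control replicate 2. The highest sums in any other library were 11.5, 0.587 and 62.9 FPKM for the pituitary, pineal and striatal markers. Meningeal markers (7) were spread more widely. They summed to 176, 176 and 224 FPKM in PTZ+Q808 replicates 1, 2 and 3, and to 276 and 132 FPKM in PTZ replicates 1 and 2. The remaining libraries of these groups held 59.7 to 92.1 FPKM, and the controls 48.6 to 123 FPKM. Y-linked transcripts were present in 3 PTZ+Q808, 3 PTZ and 2 control libraries. Of the 7 neuron markers none was at 0 in all libraries of a group, and they summed to 2466 to 2896 FPKM in PTZ+Q808, 2236 to 2787 FPKM in PTZ and 2081 to 2633 FPKM in control.

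One subunit gene passed the test. Cacna2d1 rose in PTZ+Q808 relative to control, and it was the 1 member of 10 called there (Benjamini-Hochberg adjusted p under 0.05 in limma, over 12744 genes), where 2.87% of all genes tested were called (1.94% as higher). In PTZ versus control 0 of 10 members were called against 0.0314% of all genes, and in PTZ+Q808 versus PTZ 0 of 10 against 0.0%. The comparisons share libraries, so they are not independent of each other, and their values are given side by side. In bulk tissue, more or fewer cells of a type and more or less RNA per cell cannot be told apart. Cacnb4 and Cacna1e had the next highest log2 changes in PTZ+Q808 versus control, and Cacna1h and Cacna2d2 the lowest, without passing.

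**Figure D1:**
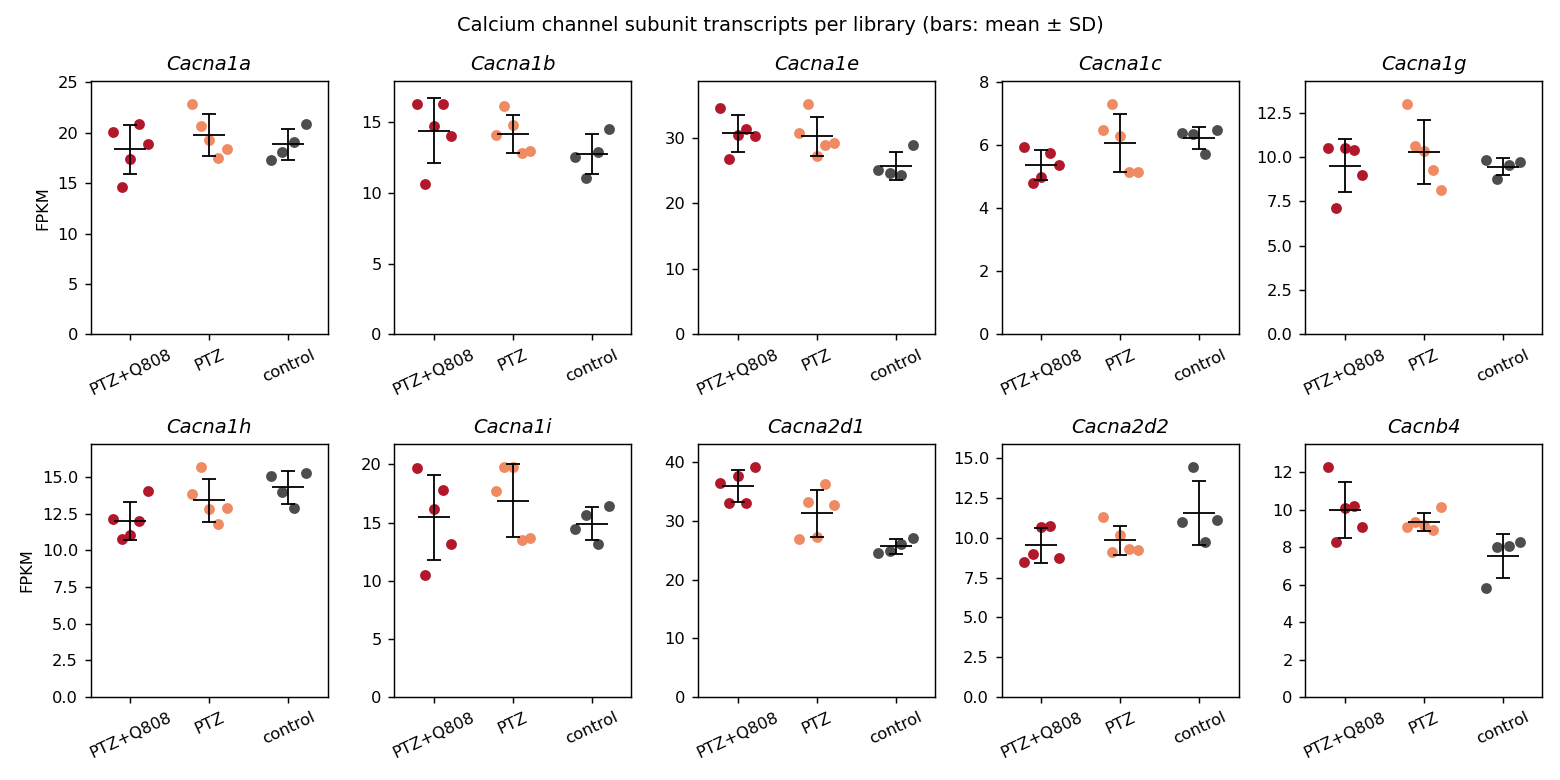
FPKM of each of the 10 genes (y axis, linear, from 0) in every library, with PTZ+Q808, PTZ and control from left to right, and the mean with SD as a line with whiskers. For Cacna2d1 the 5 PTZ+Q808 libraries lie between 33.0 and 39.2 FPKM, above the 4 control libraries at 24.5 to 27.1 FPKM, while for the other 9 genes these 2 groups overlap.

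The 10 genes spanned a wide range of levels. In control, Cacna1e (25.8 ± 2.14 FPKM, SD, n = 4) and Cacna2d1 (25.6 ± 1.22) were highest and overlapped with each other. Cacna1a came next (18.8 ± 1.51) and lay below every library of those genes. Cacna1i (14.9 ± 1.44), Cacna1h (14.3 ± 1.11), Cacna1b (12.8 ± 1.42), Cacna2d2 (11.6 ± 2.02) and Cacna1g (9.46 ± 0.492) followed below every Cacna1a library, each overlapping with its neighbour in this order. Cacnb4 (7.54 ± 1.17) lay below every Cacna1g library and overlapped with Cacna1c (6.22 ± 0.345), the lowest of the 10. In PTZ+Q808 the order was Cacna2d1 (35.9 ± 2.75 FPKM, n = 5), Cacna1e (30.7 ± 2.78), Cacna1a (18.3 ± 2.47), Cacna1i (15.4 ± 3.66), Cacna1b (14.4 ± 2.31), Cacna1h (11.99 ± 1.28), Cacnb4 (9.98 ± 1.51), Cacna2d2 (9.54 ± 1.12), Cacna1g (9.51 ± 1.49) and Cacna1c (5.36 ± 0.485). Among PTZ libraries it was Cacna2d1 (31.3 ± 4.08 FPKM, n = 5), Cacna1e (30.2 ± 3.02), Cacna1a (19.8 ± 2.08), Cacna1i (16.9 ± 3.13), Cacna1b (14.2 ± 1.36), Cacna1h (13.4 ± 1.46), Cacna1g (10.3 ± 1.81), Cacna2d2 (9.85 ± 0.934), Cacnb4 (9.33 ± 0.487) and Cacna1c (6.06 ± 0.92). Cacnb4 overlapped with Cacna2d2 and Cacna1g in both PTZ groups.

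Among the pore-forming genes, Cacna1e (gene identifier 54234), which encodes the R-type alpha1E subunit, had the highest log2 changes. It was at 34.6, 26.8, 30.4, 31.3 and 30.3 FPKM in PTZ+Q808 replicates 1 to 5, at 30.7, 35.2, 27.2, 28.9 and 29.2 FPKM in PTZ replicates 1 to 5, and at 25.1, 24.6, 24.3 and 28.9 FPKM in control replicates 1 to 4. Control replicate 4 stood above the other controls and inside the range of both PTZ groups, so the groups overlapped. The log2 change, a difference of group means of log2(FPKM + 1), was 0.24 ± 0.0818 (SE) in PTZ+Q808 versus control (95% confidence interval 0.07 to 0.42, limma adjusted p = 0.111). It was 0.02 ± 0.0771 in PTZ+Q808 versus PTZ (adjusted p = 0.978) and 0.22 ± 0.0818 in PTZ versus control (adjusted p = 0.533).

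The log2 changes of the T-type genes differed in sign and size, and 0 of the 3 were called. Cacna1h (114862), encoding the alpha1H subunit, was at 12.1, 10.8, 11.0, 12.01 and 14.03 FPKM in PTZ+Q808, at 13.8, 15.7, 12.9, 11.8 and 12.9 FPKM in PTZ, and at 15.1, 13.95, 12.9 and 15.3 FPKM in control. All PTZ+Q808 libraries except replicate 5 lay below the lowest control, and PTZ overlapped with both. Its log2 change was -0.24 ± 0.0866 in PTZ+Q808 versus control (95% interval -0.42 to -0.05, limma adjusted p = 0.139), -0.15 ± 0.0817 in PTZ+Q808 versus PTZ (adjusted p = 0.828) and -0.09 ± 0.0866 in PTZ versus control (adjusted p = 0.809). Cacna1i (56827), encoding alpha1I, had the widest spread of the 10 genes in PTZ+Q808, from 10.5 to 19.7 FPKM. Cacna1i ran from 13.5 to 19.8 FPKM in PTZ and from 13.2 to 16.5 FPKM in control, with log2 changes of 0.02, -0.13 and 0.15 for PTZ+Q808 against control, PTZ+Q808 against PTZ, and PTZ against control. Cacna1g (29717), encoding alpha1G, ran from 7.11 to 10.5 FPKM in PTZ+Q808, from 8.12 to 13.0 FPKM in PTZ and from 8.74 to 9.83 FPKM in control. Both PTZ groups enclosed the control range of Cacna1g, and its log2 changes were -0.00, -0.10 and 0.09 in the same order of comparisons.

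Cacna1c (24239), the L-type alpha1C gene, was at 5.93, 4.78, 4.98, 5.73 and 5.37 FPKM in PTZ+Q808, at 6.46, 7.29, 6.26, 5.15 and 5.14 FPKM in PTZ, and at 6.36, 6.34, 5.70 and 6.46 FPKM in control. The PTZ+Q808 libraries lay below all controls but replicate 3, which was the lowest control. The log2 change was -0.18 ± 0.092 in PTZ+Q808 versus control (95% interval -0.38 to 0.01, limma adjusted p = 0.272), -0.14 ± 0.0868 in PTZ+Q808 versus PTZ and -0.04 ± 0.092 in PTZ versus control. The genes of the presynaptic P/Q and N types had small differences. Cacna1a (25398) ran from 14.6 to 20.9 FPKM in PTZ+Q808, from 17.5 to 22.9 FPKM in PTZ and from 17.3 to 20.8 FPKM in control, with log2 changes of -0.04, -0.11 and 0.06 for PTZ+Q808 against control, PTZ+Q808 against PTZ, and PTZ against control. Cacna1b (257648) ran from 10.7 to 16.3 FPKM in PTZ+Q808, from 12.8 to 16.2 FPKM in PTZ and from 11.1 to 14.5 FPKM in control, with log2 changes of 0.15, 0.01 and 0.14 in that order. For both genes the 95% interval of every comparison included 0.

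Cacna2d1 (25399) encodes alpha2delta-1, a high-affinity site for gabapentin that also sits at excitatory synapses. It was at 36.5, 33.1, 37.6, 33.0 and 39.2 FPKM in PTZ+Q808 replicates 1 to 5, at 26.9, 33.2, 27.2, 36.3 and 32.7 FPKM in PTZ replicates 1 to 5, and at 24.5, 24.8, 26.1 and 27.1 FPKM in control replicates 1 to 4. All 5 PTZ+Q808 libraries lay above all 4 controls, while PTZ replicates 1 and 3 lay inside or next to the control range, replicates 2 and 4 within the PTZ+Q808 range and replicate 5 just below it. The mean was 40.0% higher in PTZ+Q808 than in control, with a log2 change of 0.47 ± 0.0854 (SE, 95% interval 0.29 to 0.65, limma adjusted p = 0.0215). In PTZ+Q808 versus PTZ the log2 change was 0.20 ± 0.0805 (95% interval 0.03 to 0.37, adjusted p = 0.76), and in PTZ versus control it was 0.27 ± 0.0854 (95% interval 0.09 to 0.45, adjusted p = 0.468). Cacna2d1 was thus not called between PTZ+Q808 and PTZ. Among libraries with Y-linked transcripts the log2 change of Cacna2d1 in PTZ+Q808 versus control was 0.46 (3 against 2 libraries), and among those without it was 0.51 (2 against 2). The same split gave 0.51 with and 0.20 without for Cacnb4, and -0.39 and -0.10 for Cacna2d2. It gave 0.29 and 0.19 for Cacna1e, and -0.30 and -0.16 for Cacna1h.

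The call of Cacna2d1 depended on single libraries. Without PTZ+Q808 replicate 1 or 5, the adjusted p was 0.0543 or 0.0547, and without control replicate 1 or 3 it was 0.0717 or 0.0515. It was 0.145 without the 3 libraries low in Ttr, which had the lowest choroid plexus sums. It was 0.0687 without the 3 libraries with high pituitary, pineal or striatal markers. That fit kept PTZ+Q808 replicates 1 and 2, where meningeal markers summed to 176 FPKM each. The log2 change stayed between 0.44 and 0.50 over the 26 alternatives run.

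**Figure D2:**
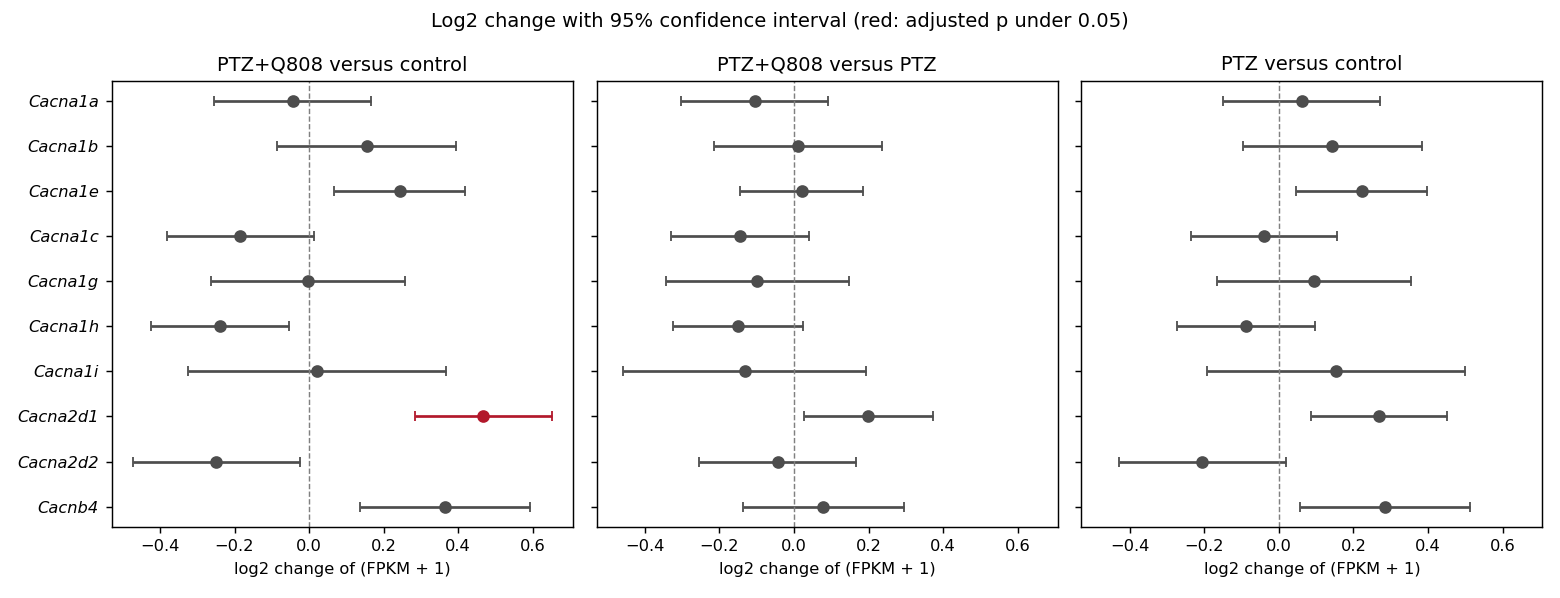
Log2 change (x axis, difference of group means of log2(FPKM + 1)) with its 95% confidence interval, not adjusted for the number of genes, for each of the 10 genes for PTZ+Q808 against control, PTZ+Q808 against PTZ, and PTZ against control. Cacna2d1 in the first comparison, at 0.47, is drawn in red as the 1 value with an adjusted p under 0.05.

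Cacna2d2 (300992), encoding alpha2delta-2, had log2 changes of the opposite sign to Cacna2d1. It was at 8.50, 8.98, 10.7, 10.8 and 8.72 FPKM in PTZ+Q808, at 11.3, 9.13, 10.2, 9.29 and 9.27 FPKM in PTZ, and at 11.0, 14.5, 9.75 and 11.1 FPKM in control. The highest of the 14 values was that of control replicate 2, the library with striatal transcripts, and the groups overlapped. In PTZ+Q808 versus control the log2 change was -0.25 ± 0.105 (95% interval -0.47 to -0.03, limma adjusted p = 0.196), in PTZ+Q808 versus PTZ it was -0.04 ± 0.0987 (adjusted p = 0.963) and in PTZ versus control it was -0.21 ± 0.105 (adjusted p = 0.648). Without control replicate 2 the values against control were -0.15 for PTZ+Q808 and -0.10 for PTZ.

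Cacnb4 (58942) encodes a beta subunit whose loss causes seizures in the lethargic mouse. It was at 12.3, 8.28, 10.1, 10.2 and 9.07 FPKM in PTZ+Q808, at 9.10, 9.31, 9.16, 8.91 and 10.2 FPKM in PTZ, and at 5.79, 8.03, 8.06 and 8.28 FPKM in control. All 5 PTZ libraries lay above all 4 controls, the 1 of 10 members without overlap in PTZ versus control, where 3.03% of all genes tested had none. PTZ+Q808 replicate 2 lay just below the highest control, so PTZ+Q808 and control overlapped. The log2 change was 0.36 ± 0.106 in PTZ+Q808 versus control (95% interval 0.14 to 0.59, limma adjusted p = 0.076), 0.08 ± 0.1 in PTZ+Q808 versus PTZ (adjusted p = 0.934) and 0.28 ± 0.106 in PTZ versus control (adjusted p = 0.545). Control replicate 1 was the lowest library, and without it the values against control were 0.26 for PTZ+Q808 and 0.18 for PTZ.

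Counts over the 10 genes stood as follows. An unadjusted p under 0.05 was reached by 5 of 10 in PTZ+Q808 versus control (Cacna2d1, Cacnb4 and Cacna1e with positive, Cacna1h and Cacna2d2 with negative log2 changes), where 20.7% of all genes tested reached it. It was reached by 1 of 10 in PTZ+Q808 versus PTZ (Cacna2d1) against 6.14% of all genes, and by 3 of 10 in PTZ versus control (Cacna2d1, Cacna1e and Cacnb4) against 8.11%. Groups did not overlap for 1 of 10 in PTZ+Q808 versus control (Cacna2d1) against 8.91% of all genes, and for 0 of 10 in PTZ+Q808 versus PTZ against 0.777%. Log2 changes were positive for 5 of 10 in PTZ+Q808 versus control (44.7% of all genes), for 4 of 10 in PTZ+Q808 versus PTZ (48.3%) and for 7 of 10 in PTZ versus control (46.3%). The median log2 change of the 10 was 0.01 in PTZ+Q808 versus control, -0.07 in PTZ+Q808 versus PTZ and 0.12 in PTZ versus control, beside medians of -0.02, -0.00 and -0.01 over all genes tested.

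The make-up of each subunit family was described as shares of its summed FPKM, with no test, and the types and ratios named were picked after the values were seen. Of the FPKM of 10 pore-forming genes, the R-type gene Cacna1e held 28.2% ± 1.41 in PTZ+Q808 (SD, n = 5, 26.5 to 30.5%), 26.4% ± 2.06 in PTZ (n = 5) and 24.3% ± 0.406 in control (n = 4, 24.0 to 24.9%). The 3 T-type genes held 33.8% ± 0.954 in PTZ+Q808, 35.2% ± 1.67 in PTZ and 36.6% ± 1.34 in control, and the 4 L-type genes 8.11% ± 0.286, 8.92% ± 0.629 and 9.27% ± 0.238 in PTZ+Q808, PTZ and control. For the R, T and L types the PTZ+Q808 libraries lay wholly on 1 side of the controls. The P/Q type (16.0 to 17.7% against 16.6 to 18.9% in control) and the N type (12.1 to 13.8% against 10.9 to 12.7%) overlapped. The shares add up to the whole, so those of the types are not independent of each other. Among single genes tested, 8.91% had no overlap in this comparison, and no such figure was computed for shares or ratios. The ratio of Cacna1e to Cacna1h FPKM was 2.57 ± 0.268 in PTZ+Q808 (2.16 to 2.85), 2.26 ± 0.12 in PTZ (2.12 to 2.45) and 1.80 ± 0.109 in control (1.67 to 1.89). Both PTZ groups lay above every control in this ratio, whereas the summed FPKM of the pore-forming genes overlapped, at 109 ± 13.5 in PTZ+Q808, 115 ± 12.2 in PTZ and 106 ± 6.98 in control.

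Among the 4 alpha2delta genes, Cacna2d1 held 37.7% ± 3.03 of the FPKM in PTZ+Q808, 34.0% ± 3.40 in PTZ and 30.5% ± 1.59 in control. Cacna2d2 held 10.1% ± 1.58, 10.8% ± 1.44 and 13.7% ± 2.01 in PTZ+Q808, PTZ and control, and Cacna2d3 52.2% ± 3.77, 54.7% ± 1.98 and 55.8% ± 1.05. Cacna2d1 thus stood second to Cacna2d3 by mean in every group. The ratio of Cacna2d1 to Cacna2d2 was 3.81 ± 0.585 in PTZ+Q808 (3.06 to 4.498), 3.22 ± 0.662 in PTZ (2.37 to 3.90) and 2.26 ± 0.408 in control (1.72 to 2.67). Cacnb4 was a minor beta gene, with 9.63% ± 1.18 of the beta FPKM in PTZ+Q808, 8.88% ± 0.787 in PTZ and 6.98% ± 0.978 in control, behind Cacnb3 (52.8%, 53.5% and 54.8%) and Cacnb1 (29.7%, 30.0% and 30.8%).

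**Figure D3:**
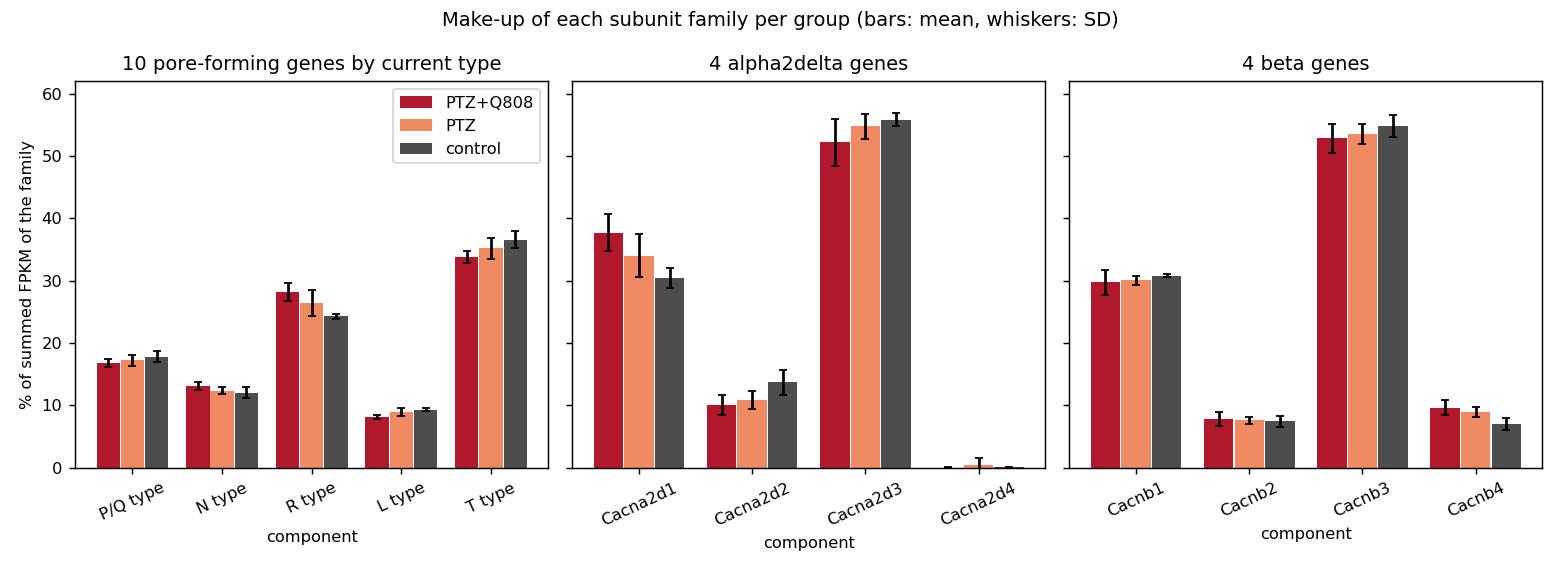
Share of the summed FPKM of each family (y axis, percent, from 0) held by each current type of the 10 pore-forming genes, each of the 4 alpha2delta genes and each of the 4 beta genes, as mean bars with SD whiskers for PTZ+Q808, PTZ and control from left to right. Cacna2d1 makes up 37.7%, 34.0% and 30.5% of the alpha2delta sum in PTZ+Q808, PTZ and control.

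Within groups, the 7 pore-forming genes varied together from library to library. Over the 14 libraries, the deviations of log2(FPKM + 1) from the group means correlated positively in 21 of 21 pairs of these genes (Pearson r from 0.34 to 0.83, median 0.68). For Cacna2d1 against each of the 7 pore-forming genes, r ran from -0.29 to 0.33 (median -0.15), with 3 of 7 positive. For Cacnb4 against the pore-forming genes r ran from -0.05 (Cacna1h) to 0.54 (Cacna1a), and for Cacna2d2 from -0.12 (Cacna1e) to 0.32 (Cacna1i). The genes of a pair share library, depth and scaling, and these r values are a description. Such r values were not computed for other genes, so whether the shared variation is particular to pore-forming genes was not tested. PTZ+Q808 replicate 2 was the lowest of all 14 libraries for 6 of 7 pore-forming genes, against 13.6% of all genes tested that were lowest there, and its median deviation over the 7 was -0.30. This library also had the lowest estimated depth (0.859) and the highest sum of FPKM (419358), whose part in the deviation was not tested. In PTZ replicates 4 and 5 all 7 genes were below the group mean (median deviations -0.16 and -0.11). Without PTZ+Q808 replicate 2 the log2 changes in PTZ+Q808 versus control were 0.25 for Cacna1b, 0.29 for Cacna1e and 0.42 for Cacnb4, and Cacnb4 then passed (limma adjusted p = 0.0498).

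**Figure D4:**
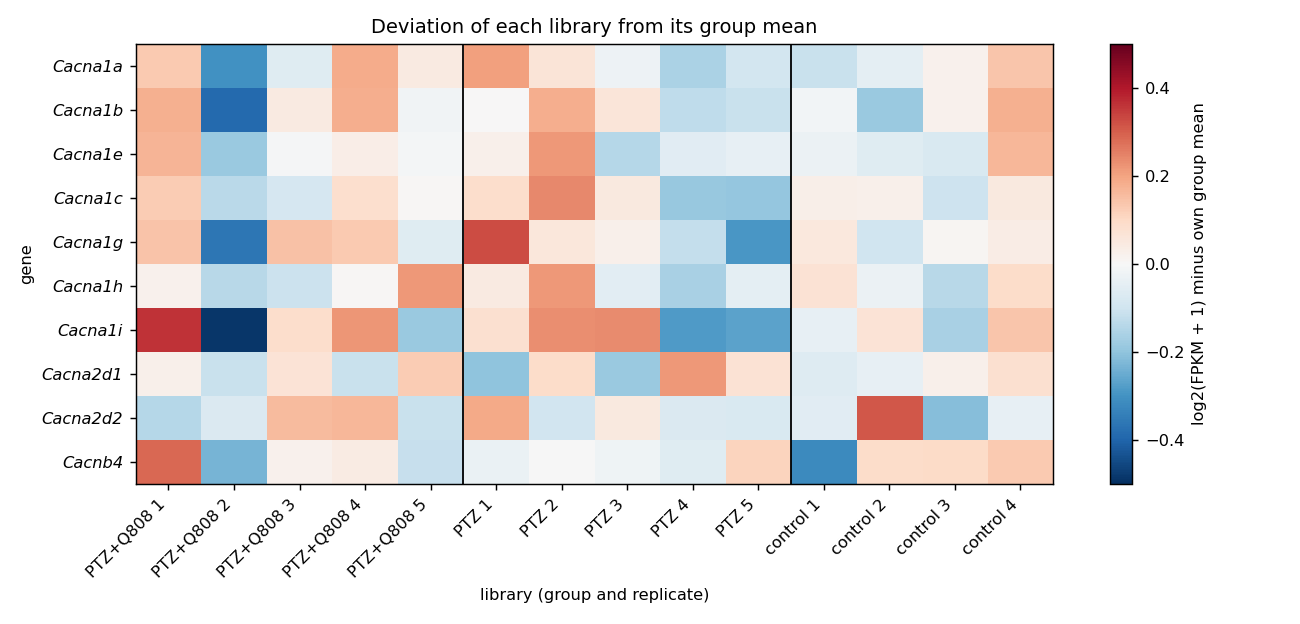
Deviation of log2(FPKM + 1) from the own group mean (color, blue below and red above) for the 10 genes (rows) in the 14 libraries (columns, PTZ+Q808, PTZ and control from left to right). PTZ+Q808 replicate 2 is blue for all 7 pore-forming genes, with a median deviation of -0.30.

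The 2 tested genes listed next, outside the family, followed Cacna2d1 most closely over the 14 libraries by Pearson correlation of log2(FPKM + 1). They were Nlgn1 (r = 0.971, Spearman rho = 0.974), which encodes the synaptic adhesion protein neuroligin 1, and Phf14 (r = 0.962, Spearman rho = 0.921), which encodes a PHD finger protein. In all, 31 of 12734 other genes tested (0.243%) had r of 0.9 or more. The 3 groups are pooled in these r values, so the difference between groups is part of them. Both of these genes were called in PTZ+Q808 versus control, with log2 changes of 0.47 ± 0.0827 for Nlgn1 (limma adjusted p = 0.0199) and 0.37 ± 0.0649 for Phf14 (adjusted p = 0.0204). They were picked by r with a called gene in the same libraries, so these calls are not independent of that of Cacna2d1.

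Promoter sequence is shown for Cacna2d1, the gene that passed, and for Cacna1e, the gene at a similar control level that did not. RefSeq windows (build GRCr8, 250 bases before to 50 after a gene start) were found for 6 of the 10 genes, 8 windows in all, and letters of activity-related motifs were searched on both strands. Capitals mark TGACG, the core of the cyclic AMP response element, and the Egr motif in its form GCGGGGGCG, here on the opposite strand. The first window of Cacna2d1 is chr4:20330098-20330397 and that of Cacna1e is chr13:69444761-69445060, both on the minus strand and printed 5′ to 3′ along the gene.
Cacna2d1: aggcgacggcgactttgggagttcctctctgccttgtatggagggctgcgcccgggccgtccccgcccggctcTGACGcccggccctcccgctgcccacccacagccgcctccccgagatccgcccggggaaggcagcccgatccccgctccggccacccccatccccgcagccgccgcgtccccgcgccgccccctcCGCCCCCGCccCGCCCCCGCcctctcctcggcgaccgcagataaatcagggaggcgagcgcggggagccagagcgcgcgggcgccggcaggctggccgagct
Cacna1e: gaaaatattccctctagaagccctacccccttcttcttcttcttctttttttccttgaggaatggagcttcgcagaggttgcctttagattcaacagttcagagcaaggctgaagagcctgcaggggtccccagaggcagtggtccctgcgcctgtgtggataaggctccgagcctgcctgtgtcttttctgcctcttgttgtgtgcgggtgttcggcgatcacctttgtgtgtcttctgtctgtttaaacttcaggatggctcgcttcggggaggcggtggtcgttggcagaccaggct
The Cacna2d1 window holds 41 CpG (78.3% G or C) with TGACG at base 74 and the Egr motif at bases 199 and 210, counted from 1 at the 5′ end, and the Cacna1e window holds 10 CpG (53.7%) and no marked motif. Windows 2 and 3 of Cacna2d1 hold no TGACG or Egr match. The window of Cacna1b holds 34 CpG, TGACG at base 183 and the Egr motif at bases 136 and 148. Cacna1b was not called (limma adjusted p = 0.463 in PTZ+Q808 versus control), so these letters do not set the called gene apart. The median over all 33469 windows was 7 CpG. TGACG was in 21.2% of all windows and in at least 1 window of Cacna1b, Cacna1c and Cacna2d1, and GCGTGGGCG or GCGGGGGCG was in 3.2% of all windows and in at least 1 of Cacna1b and Cacna2d1. The full element TGACGTCA (1.83% of all windows) and the AP-1 motif TGACTCA (4.63%) were in none of the 6 genes' windows, and the GC box GGGCGG (33.1%) was in at least 1 window of Cacna1a, Cacna1b, Cacna2d1 and Cacna2d2. TGACG is contained in TGACGTCA. These matches are letters in a window and say nothing of binding.

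The other 10 subunit genes had no call. Of these, 5 passed the filter on low values, and 0 were called in any of the 3 comparisons. Cacnb3, the most abundant beta gene, averaged 54.8 ± 5.30 FPKM in PTZ+Q808, 56.5 ± 4.89 in PTZ and 59.0 ± 2.39 in control, and Cacna2d3 49.8 ± 5.57 FPKM, 50.2 ± 3.66 and 47.0 ± 2.48 in PTZ+Q808, PTZ and control. Cacnb1 averaged 30.6 ± 0.826 FPKM in PTZ+Q808, 31.6 ± 1.85 in PTZ and 33.2 ± 0.665 in control. Its PTZ+Q808 libraries lay below all controls (log2 change -0.11, limma adjusted p = 0.198). It was the 1 of these 5 genes without overlap in that comparison, against 8.91% of all genes tested. Cacnb2 averaged 8.05 ± 0.898 FPKM in PTZ+Q808, 7.995 ± 0.7 in PTZ and 8.01 ± 0.925 in control, and the L-type gene Cacna1d averaged 3.39 ± 0.417, 3.76 ± 0.521 and 3.51 ± 0.278 FPKM in PTZ+Q808, PTZ and control. Cacna1s, Cacng1 and Cacng6, for which the highest values were 0.106, 0.356 and 0.782 FPKM, did not pass the filter.

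Cacna1f and Cacna2d4, known from photoreceptor synapses, were at 1.96 and 2.14 FPKM in PTZ replicate 1 and at most 0.0727 and 0.0656 FPKM in every other library. The same library held the pineal transcripts Tph1 (192 FPKM), Gngt1 (20.0), Crx (14.5), Asmt (11.3) and Lhx4 (7.81), a list drawn up after its values were seen. PTZ replicate 1 was also the highest of the 14 libraries for Cacna1a (22.9 FPKM) and Cacna1g (13.0 FPKM), where 11.7% of all genes tested were highest. PTZ replicate 2, in which the 7 pineal markers summed to 0.416 FPKM, was the highest for 3 of the 7 pore-forming genes, Cacna1c, Cacna1e and Cacna1h, against 6.37% of all genes tested. The part of pineal RNA in the values of Cacna1a and Cacna1g was not tested.

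**Figure D5:**
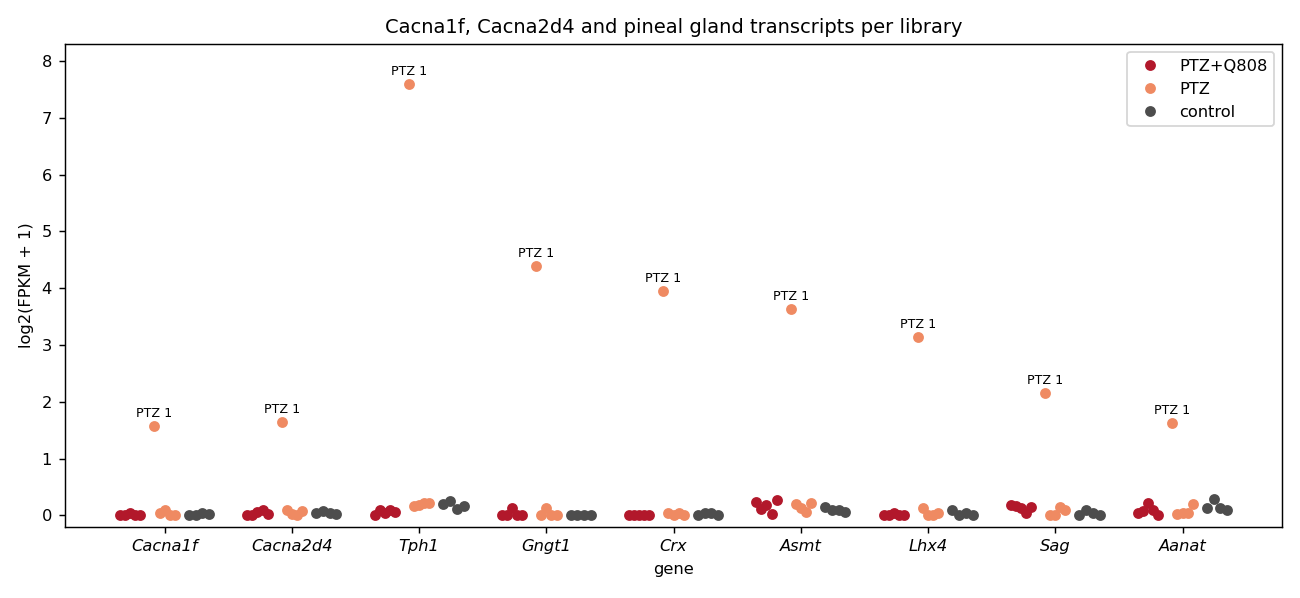
Log2(FPKM + 1) (y axis) of Cacna1f, Cacna2d4 and 7 pineal gland transcripts (x axis) in each library, with PTZ+Q808, PTZ and control from left to right at each gene. PTZ replicate 1, labelled PTZ 1, stands alone for all 9 genes, with Tph1 at 192 FPKM.

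Genes around the channel were read from lists. Of 37 genes for channel partners and regulators, 32 were tested and 0 were called in any comparison. Over all genes tested, 2.87% were called in PTZ+Q808 versus control, 0.0% in PTZ+Q808 versus PTZ and 0.0314% in PTZ versus control. Log2 changes were positive for 22 of 32 partner genes in PTZ+Q808 versus control (median 0.09), against 44.7% of all genes. They were positive for 13 of 32 in PTZ+Q808 versus PTZ (median -0.02), against 48.3%, and for 25 of 32 in PTZ versus control (median 0.06), against 46.3%. The smallest adjusted p was that of Thbs1, named after its values were seen, which encodes thrombospondin 1, a ligand of alpha2delta-1. Thbs1 averaged 4.499 ± 3.18 FPKM in PTZ+Q808, 3.30 ± 1.03 in PTZ and 1.32 ± 0.357 in control, with a log2 change of 1.09 ± 0.307 in PTZ+Q808 versus control (limma adjusted p = 0.0684). All libraries of both PTZ groups lay above all controls for Thbs1, and it did not pass. Of the 32 partner genes tested, 3 had no overlap in PTZ+Q808 versus control, against 8.91% of all genes. In PTZ versus control 2 had none, against 3.03%.

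Immediate early genes are transcribed quickly after a stimulus, in neurons and in other cells. Of the 14 on the list, 5 rose in PTZ+Q808 versus control, where 1.94% of all genes tested were called higher, and 2 rose in PTZ versus control, where 0.0314% were. Between PTZ+Q808 and PTZ 0 of 14 and 0.0% of all genes were called. Log2 changes were positive for 14 of 14 in PTZ+Q808 versus control (median 1.63), against 44.7% of all genes tested. In PTZ+Q808 versus PTZ they were positive for 8 of 14 (median 0.04), against 48.3%. In PTZ versus control they were positive for 14 of 14 (median 1.45), against 46.3%. The list was chosen with earlier results of these data known, so its counts are a description and not a test. The PTZ+Q808 and PTZ comparisons share their controls. The 2 genes that rose in PTZ versus control were Apold1, an early response gene of endothelial cells, with a log2 change of 2.49 ± 0.279 (limma adjusted p = 0.0041), and Cyr61, which encodes a secreted matrix-associated protein, with 2.56 ± 0.358 (limma adjusted p = 0.0263). Both also rose in PTZ+Q808 versus control (2.29 and 2.21), as did Npas4, an activity-dependent transcription factor gene of neurons (2.54 ± 0.591, limma adjusted p = 0.0377), and Dusp1, which encodes a MAP kinase phosphatase (1.49 ± 0.286, limma adjusted p = 0.0226). In PTZ versus control Npas4 had a log2 change of 2.57 ± 0.591 and did not pass (limma adjusted p = 0.303).

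Cell type markers were read in the same libraries, in PTZ+Q808 versus control, where 44.7% of all genes tested had positive log2 changes and 2.87% were called. The 8 oligodendrocyte markers had negative log2 changes in 8 of 8 cases with 0 called, and summed to 2723 to 5219 FPKM in PTZ+Q808, 3888 to 5817 FPKM in PTZ and 3739 to 7391 FPKM in control. The 7 neuron markers had positive log2 changes in 4 of 7 cases with 0 called (median 0.10). Of the 7 astrocyte markers 6 had negative values, and Sox9, a glial transcription factor gene, fell (log2 change -0.73 ± 0.136, limma adjusted p = 0.0226). The 7 meningeal markers had positive values in 7 of 7 cases with 0 called, and summed to 59.7 to 224 FPKM in PTZ+Q808, 69.0 to 276 FPKM in PTZ and 48.6 to 123 FPKM in control. Of the 6 CA3 pyramidal markers 5 were tested, with negative values in 5 of 5 cases and 0 called (median -0.21). The CA3 list summed to 135 to 158 FPKM in PTZ+Q808, 151 to 165 FPKM in PTZ and 159 to 199.97 FPKM in control, highest in control replicate 2. The 6 CA1 pyramidal markers had positive values in 4 of 6 cases with 0 called (median 0.10). They summed to 332 to 406 FPKM in PTZ+Q808, 326 to 424 FPKM in PTZ and 279 to 405 FPKM in control. The 7 neocortex markers had positive values in 6 of 7 cases with 0 called (median 0.25), and summed to 73.3 to 105 FPKM in PTZ+Q808, 75.3 to 126 FPKM in PTZ and 70.4 to 107 FPKM in control. The neocortex marker Etv1, named after its values were seen, had all PTZ+Q808 libraries above all controls (log2 change 0.31, limma adjusted p = 0.0547). It was the 1 of 7 neocortex markers without overlap, against 8.91% of all genes tested. The tested choroid plexus markers had positive values in 7 of 7 cases (median 0.08) and the tested striatal markers negative values in 7 of 7 (median -0.69), with 0 called in either list. The striatal sum was 490 FPKM in control replicate 2. It was 46.8 to 56.6 FPKM in the other controls, inside the 44.7 to 62.9 FPKM of PTZ+Q808. Among tested markers of further lists, positive values were held by 1 of 4 for dentate granule cells, 4 of 7 for inhibitory interneurons and 4 of 6 for microglia. They were held by 4 of 5 for endothelium, 1 of 6 for thalamus and 2 of 2 for pituitary, and 0 of these were called. The thalamic sum was 45.2 FPKM in control replicate 2 and 18.9 to 26.8 FPKM in every other library. The pituitary sum was 685 FPKM in PTZ+Q808 replicate 3 and at most 11.5 FPKM elsewhere. The part of these markers in the rise of Cacna2d1 was not tested.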

How the data were processed

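Gene symbols, gene identifiers and FPKM came from 14 tables, 1 per library. The authors computed and deposited the FPKM, and the submitters' processing notes name HISAT2 and Bowtie2, Cufflinks and StringTie, HTSeq, DESeq, Trimmomatic and SAMtools without role or version. The genome build was not given in the sources used here. Depth behind each value is unknown, so no counting interval is given, and relative depth was estimated from the steps between low values of 1579 genes. Of 22601 identifiers 20633 matched a RefSeq table used for names, and 12 symbols stored as dates were read through their identifiers.

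Genes with FPKM of at least 1 in at least 4 libraries (12744) were transformed as log2(FPKM + 1), which shrinks the changes of low genes. One model of all 3 groups was fitted with limma 3.58.1 in R 4.3.3, the prior variance depending on the mean, with 11 residual degrees of freedom left. Tests were two-sided with Benjamini-Hochberg adjustment over all genes tested, and a gene was called at an adjusted p under 0.05. The design text counts rats, and p-values measure the spread between these libraries. Python 3.11.15, pandas 2.3.3, numpy 2.4.6 and matplotlib 3.10.9 were used for tables and figures.

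All 10 members and all 10 other subunit genes were named. From other lists up to 4 called genes were named, and for each called member the 3 tested genes of highest correlation over the 14 libraries, of which 1 is not reported here. The members and lists were chosen with earlier results of these data known. Alternatives were other pseudocounts, filters and scalings, a fit of 2 groups, weights per library, the replicate number as a block, and leaving out each library. A Y-linked term and the omission of 3 libraries low in Ttr (under 500 FPKM) were chosen after seeing the data. So was the omission of 3 libraries with high pituitary, pineal or striatal markers, called other tissue below. Libraries with high meningeal markers only were kept in that fit.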

Additional observations from a re-analysis of the deposited data

Results flagged for a closer look

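In each group of 4 or 5 libraries the highest and lowest value of 20 subunit genes were set against the rest by Dixon's test, 60 sets of values in all, and 6 single libraries lay apart. Chance flags about 1 in 20 such groups. Among the 10 genes described, control replicate 3 was low for Cacna1c (5.70 FPKM, next control 6.34), control replicate 4 was high for Cacna1e (28.9 FPKM, next control 25.1), and control replicate 1 was low for Cacnb4 (5.79 FPKM, next control 8.03). Among the other genes, PTZ+Q808 replicate 2 was low for Cacnb3 (45.4 FPKM, next 56.4), and PTZ replicate 1 was high for Cacna1f (1.96 FPKM, next PTZ library 0.0727) and Cacna2d4 (2.14 FPKM, next PTZ library 0.0623).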

How the results depend on the processing

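Of 780 values of the 10 genes over 26 alternatives in 3 comparisons, 742 kept their direction and their side of the threshold. The call of Cacna2d1 in PTZ+Q808 versus control held in 19 of 26 alternatives (log2 change 0.44 to 0.50, limma adjusted p 0.0057 to 0.145). Replicate numbers gave little sign of pairing (r of deviations from -0.28 to 0.14 over 13 same-number pairs, 2 over 0.1). Pairs of unlike number were not set beside these, and whether same-number libraries were handled together was not tested. With a replicate block the count of called genes was 4 in PTZ+Q808 versus control, 0 in PTZ+Q808 versus PTZ and 0 in PTZ versus control, 0 members were called, and Cacna2d1 had a log2 change of 0.44 (adjusted p = 0.0705). The members called in PTZ+Q808 versus control, 1 in all, were 2 with weights per library (Cacna2d1 and Cacnb4, with Cacnb4 at 0.44, adjusted p = 0.0256), 0 without the 3 libraries low in Ttr, 0 without the 3 libraries with markers of other tissues, and 0 to 2 leaving out 1 library.

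Genes called over the whole table in PTZ+Q808 versus control (366) were 190 with no filter, 199 with only the 2 groups compared, 1100 with weights per library, 564 with a Y-linked term, 0 without the libraries low in Ttr, 35 without those with other tissue, and 17 to 673 leaving out 1 library. The 17 came without control replicate 1 and the 673 without PTZ+Q808 replicate 4. Without PTZ+Q808 replicate 1, 3 or 5 the count was 32, 72 or 38, and without control replicate 3 or 4 it was 40 or 54. In PTZ+Q808 versus PTZ (0, with 783 genes at an unadjusted p under 0.05) 2 were called with no filter. In PTZ versus control (4) the count was 1 with no filter, 0 with only the 2 groups compared, 7 with weights per library, 8 with a Y-linked term, 0 without the libraries with other tissue, and 1 to 5 leaving out 1 library. It was 1 without PTZ replicate 3 or 4 or control replicate 1, 3 or 4, and 2 without PTZ replicate 5 or PTZ+Q808 replicate 3.

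Signs turned for 29 values, all of genes with a log2 change of at most 0.09 in size, and none was called. In PTZ+Q808 versus control Cacna1g was 0.0070 with median-of-ratios scaling, 0.0032 with quantile normalization, 0.0395 with a replicate block and 0.0286 with weights per library, and Cacna1i was -0.12 without the libraries low in Ttr. In PTZ+Q808 versus PTZ Cacna1b was -0.0066 with an equal total per library and -0.00050 without the libraries with other tissue. In PTZ versus control, Cacna1a was -0.0065 and Cacna1g -0.0209 without the libraries with other tissue. Leaving out 1 library gave -0.0904 to 0.0314 for Cacna1a, -0.0405 to 0.0861 for Cacna1g and -0.0690 to 0.14 for Cacna1i in PTZ+Q808 versus control. In PTZ+Q808 versus PTZ it gave -0.0347 to 0.11 for Cacna1b, -0.0215 to 0.0753 for Cacna1e and -0.0856 to 0.0037 for Cacna2d2, and in PTZ versus control -0.10 to 0.0080 for Cacna1c. The causes of these changes were not tested.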
